A study of Takifugu alboplumbeus with 24 samples.

Results

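Homeobox genes encode transcription factors that bind DNA through a homeodomain. The set described here is every row of the deposited expression table whose description holds the word homeobox and whose mean over all libraries was at least 1 FPKM (fragments per kilobase of transcript, scaled to the mapped fragments of the library). The word occurred in 239 of 24935 rows. Of these, 99 reached the mean and 140 lay below it. The 99 genes were sorted by name into 24 cut, zinc finger and atypical genes, 13 paired-like genes, 12 LIM genes (lhx, lmx and isl), 8 genes of the meis, pbx, pknox, tgif and mkx group, 6 pou, 5 nkx, 5 sine oculis type (six2, six3 and relatives), 4 dlx and 3 irx genes, and 19 others. For 34 of them the table gives only an LOC symbol, and the short name used here comes from the protein name in the same row.

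The fish were wild male grass puffers (Takifugu alboplumbeus), caught at a spawning beach at Minamichita, Japan, on 8 weekly dates from May to July 2020 and brought to the laboratory alive. The brain piece, taken in the evening, held hypothalamus, pituitary and ventral telencephalon together. Each date has 3 libraries, called fish 1 to 3 here, although the labels do not state that a library is 1 animal. The new and full moon dates (New moon May, Full moon June, New moon June, Full moon July) are spring tides, with 12 libraries, and the waxing and waning moon dates (Waxing moon May, Waning moon June, Waxing moon June, Waning moon July) are neap tides, with 12 libraries. The labels name no treatment. Each date is a separate catch in a separate week, so catch and tide are not independent.

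Homeodomain proteins pattern the embryonic brain, and many stay active in adult neurons and glia, where they help keep regional and cell identity. In vertebrates, nkx2-1, otp, rax, six3 and six6 mark the hypothalamus and the area before it, dlx and arx mark the inhibitory neurons of the ventral telencephalon, and lhx3, lhx4 and pou1f1 drive the hormone cells of the pituitary. Hox genes, in contrast, are used from the hindbrain backwards.

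Most homeobox genes were expressed at low levels. The median of their mean levels was 4.29 FPKM, against 9.28 FPKM over all 17058 genes with a mean of at least 1. There were 6 genes at 20 FPKM or more, 12 from 10 to 20, 26 from 5 to 10 and 55 below 5, of which 24 lay below 2. The highest mean was that of six3, a forebrain and eye regulator, at 48.0 FPKM (24 libraries, 34.5 to 60.2). It was followed by pou2f1, the widely expressed octamer-binding factor Oct-1 of mammals, at 46.9 FPKM (29.5 to 75.7), and the paired-like gene shox2 at 30.3 FPKM (19.3 to 41.3). The ranges of six3 and pou2f1 overlapped over most of their length, and that of shox2 overlapped both. The next were hmbox1 at 26.4, a copy of prox1 (prox1-like, LOC101077031) at 26.3 and zeb2 at 22.2 FPKM, which cannot be ordered beyond their spread. Just inside the minimum stood the otx5-like copy LOC101066688 at a mean of 1.04 FPKM, lhx6 at 1.03 and meis1 at 1.01, and just outside it bsx at 0.988, hhex at 0.963 and a goosecoid-like gene (LOC101076325) at 0.939. Of the 99 genes, 97 were above 0 in all 24 libraries, and the exceptions were a pair of otx5-like copies.

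**Figure D1:**
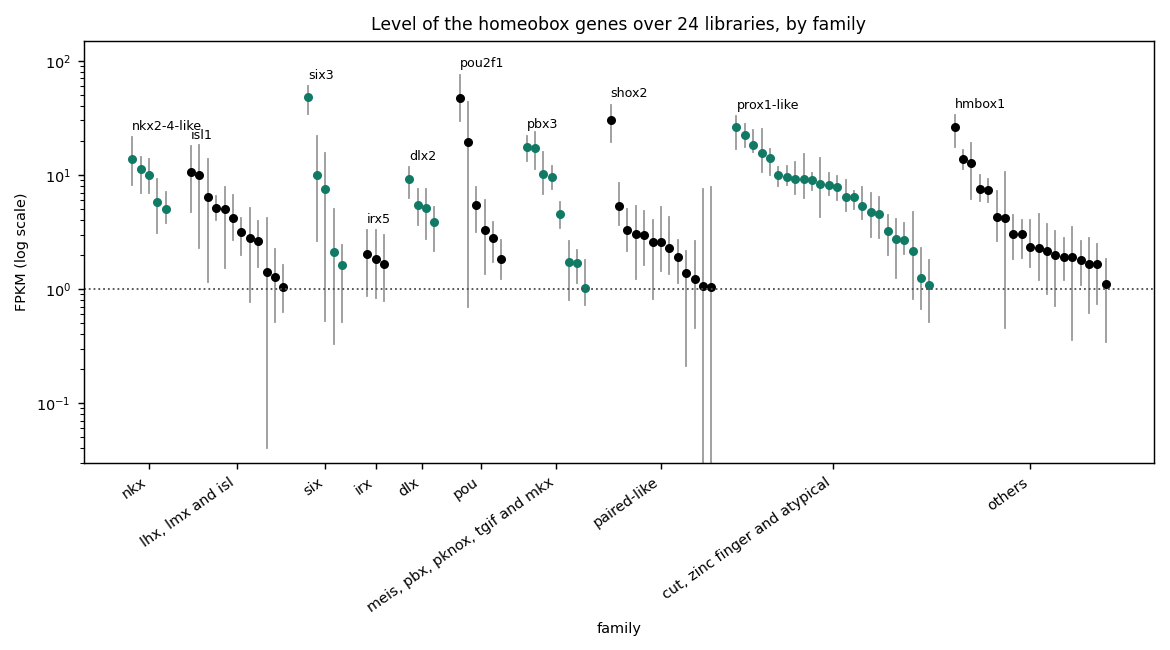
Mean FPKM of each of the 99 homeobox genes (points, log scale) with its lowest and highest library (lines, 24 libraries), by family; the dotted line is the minimum mean of 1 and names mark the highest gene of a family. six3 at 48.0 and pou2f1 at 46.9 lead, and the lines of the otx5-like pair, cut at the lower edge, run down to 0.

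The hox genes and a list of midbrain and hindbrain genes were low, which was looked at beside the labelled tissue. All 40 hox rows of the table had a mean below 0.1 FPKM, the highest mean was 0.0625 and the highest value in any library 0.29. The midbrain and hindbrain genes en2 (mean 0.616 FPKM), gbx2 (0.445), en1 (0.0171), phox2a (0.131) and tlx3 (0.0100) were all under the minimum. Forebrain genes that also stayed under it were dbx1 at 0.720, emx2 at 0.665 and nkx6-1 at 0.550 FPKM, so a low level does not by itself separate the regions. Not every gene named for other levels was low. The dmbx1-B-like gene (LOC101068657), of a family named after diencephalon and mesencephalon, was above the minimum. Among the most abundant genes was shox2, which acts in thalamic and other projection neurons of mice.

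Spring and neap tides were compared first, the main contrast of the sampling. At spring tide 12 of the 99 homeobox genes were lower and 0 were higher (limma, adjusted p below 0.05 over 17058 genes). Among all genes tested, 4.31% were lower and 1.32% higher, 5.63% in either direction. The 12 were pknox1, zeb1, onecut2, pou3f4, nkx2-4-like, hlx, hmx3-A, nkx2-1, lmx1a-like, irx5, onecut1 and lhx5, and they came from 7 of the 10 family groups. Scaling each library to a common sum moved the median of all genes to -0.15, and 30 homeobox genes were then lower, beside 17.5% of all genes called in either direction. With median-ratio scaling 6 were lower (3.96% of all genes called) and with quantile normalization 7 (4.13%), and 0 were higher in each. The median log2 change of the 99 genes was -0.12, beside -0.04 over all genes tested, and 34 of the 99 were higher at spring tide, beside 41.5% of all genes. The decreases were modest, between 0.35 and 0.86 on the log2(FPKM + 1) scale, which understates the change of genes with low values.

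In the 12 genes, Waning moon June, Waxing moon June and Waning moon July were high, while the neap date Waxing moon May lay near the spring dates. Of the 99 genes, 6 had all 4 spring date means below all 4 neap date means (4.57% of all genes), and 30 had them below the 3 neap dates other than Waxing moon May (21.7% of all genes). In 4 genes, with nkx6-2, msh-D-like and six4 among them, all spring date means lay above all neap means (2.28% of all genes). The summed FPKM of the libraries moved with the same dates: it was 508 ± 24.8 at spring and 463 ± 26.1 at neap tide (in units of 1000 FPKM; SD, n = 4 dates), and 501 at Waxing moon May. With that sum as a covariate 0 of the 99 genes were called, beside 5 of all 17058. Without Waxing moon May 32 were called, 29 lower and 3 higher, beside 24.2% of all genes, so both moves were shared by the whole table. In a piece that holds 3 tissues, fewer cells of a type and less RNA per cell cannot be told apart.

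**Figure D2:**
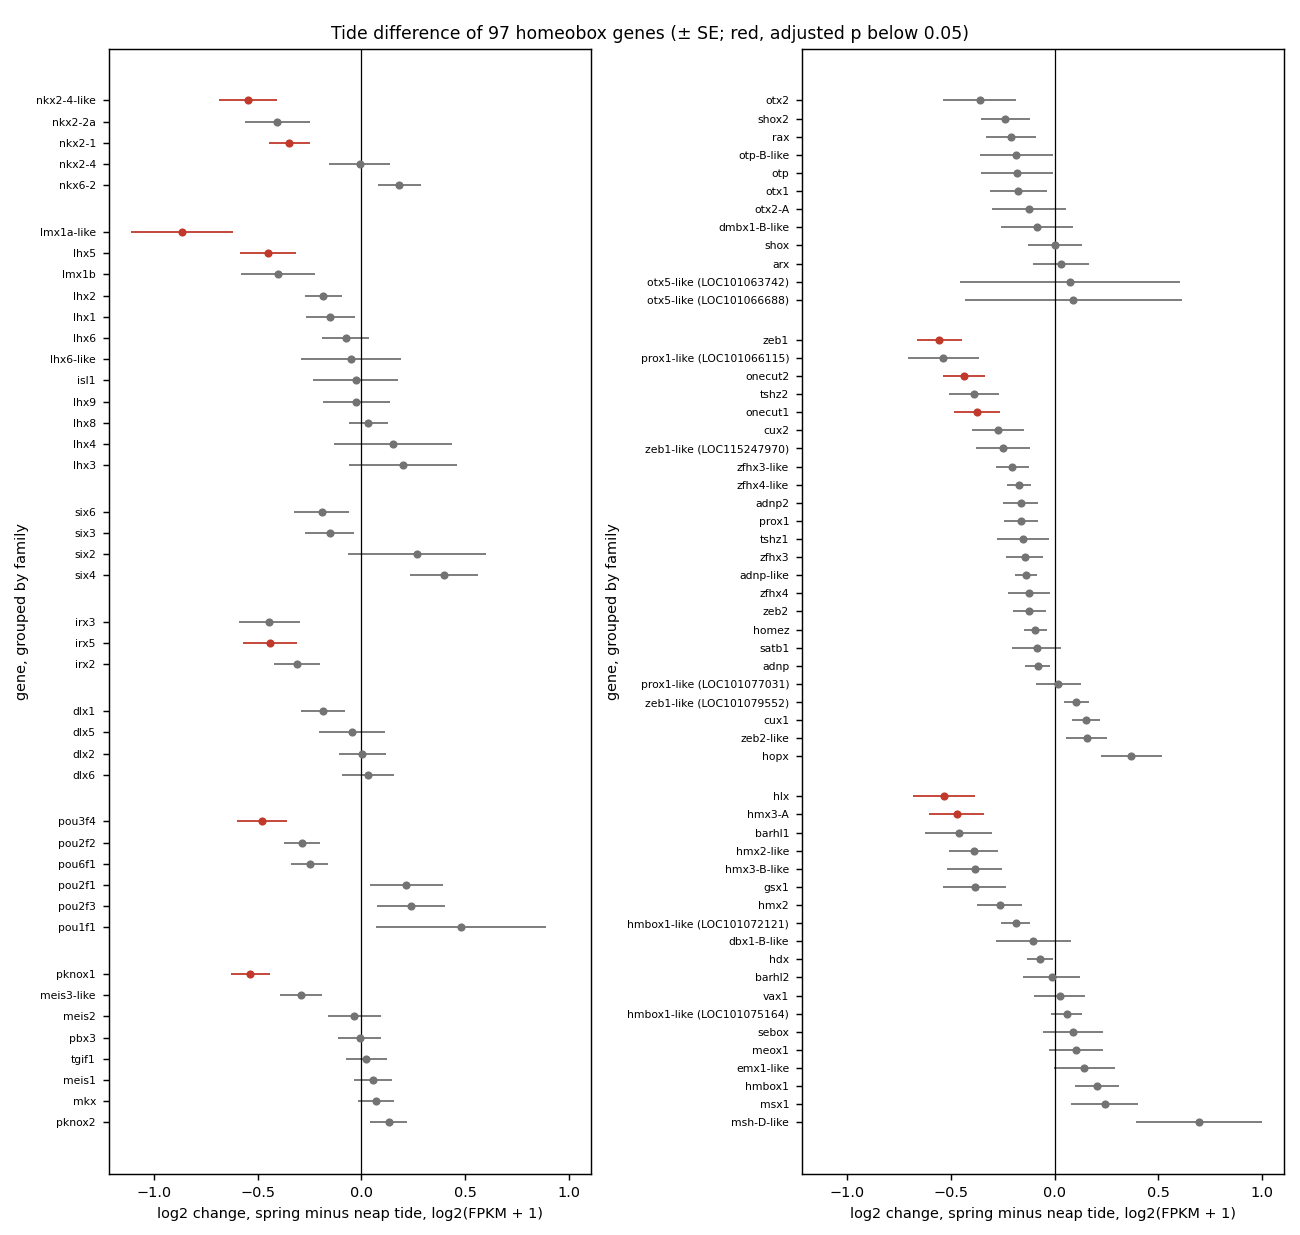
Log2 change from neap to spring tide of 97 homeobox genes on the log2(FPKM + 1) scale (points) with its SE (lines), grouped by family; red marks an adjusted p below 0.05. All 12 red points lie left of 0, from -0.35 for nkx2-1 to -0.86 for lmx1a-like.

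Of the nkx genes, which shape the ventral brain, 2 of 5 were called lower at spring tide, beside 4.31% of all genes tested. With median-ratio scaling or quantile normalization 1 of the 5 passed (3.96% and 4.13% of all genes), and nkx2-1 did not. With scaling to a common sum 3 passed, beside 17.5% of all genes. The nkx2-4-like gene (LOC101076863) had 8.77 to 17.2 FPKM in the spring libraries with a median of 10.2, and 8.14 to 21.5 with a median of 17.2 in the neap libraries. The low neap values were those of Waxing moon May, at a mean of 11.1 FPKM, while Waning moon June, Waxing moon June and Waning moon July were at 20.4, 18.3 and 17.1. Its log2 change was -0.55 (SE 0.14, limma, adjusted p = 0.0317). The regulator nkx2-1, needed for the hypothalamus in mice, went from a median of 11.7 FPKM (6.99 to 13.9) at neap to 8.45 (6.99 to 10.8) at spring tide, a change of -0.35 (SE 0.10, adjusted p = 0.0427). The groups overlapped, and Waxing moon May fish 3 was the lowest neap library. A further gene, nkx2-2a (LOC101077241), which acts in ventral neurons and oligodendrocytes in mice, stood at 4.78 ± 0.645 (spring) and 6.73 ± 1.73 FPKM (neap) and did not pass (-0.40, SE 0.16, adjusted p = 0.108). The copy nkx2-4 itself was level, with 11.2 ± 0.536 against 11.3 ± 1.83 FPKM (-0.01, SE 0.15, adjusted p = 0.979). The ratio of the nkx2-4-like gene to nkx2-4 within a library was 0.867 to 1.26 in the spring and 1.27 to 1.71 in the neap date means. These ranges nearly met, and the difference was not tested. The pair sets a gene called in these same data over a level copy, so the ratio is no separate support. The last of the 5, nkx6-2, had 5.40 ± 0.652 at spring and 4.59 ± 0.160 FPKM at neap tide and did not pass (adjusted p = 0.256).

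Of the LIM genes, whose proteins pair a homeodomain with LIM domains that recruit cofactors, 2 of 12 were called lower. Over all genes tested 4.31% were. With median-ratio scaling or quantile normalization 0 of the 12 LIM genes passed (3.96% and 4.13% of all genes). With scaling to a common sum 2 did, beside 17.5% of all genes. The lmx1a-like gene (LOC101079432), named after a regulator of dopamine neurons and posterior hypothalamus in mice, had the largest change of the 12 called genes. It ranged from 2.28 to 12.8 FPKM with a median of 6.69 at spring and from 4.16 to 18.1 with a median of 14.9 at neap tide (-0.86, SE 0.25, adjusted p = 0.0441). Full moon July, at a mean of 3.24 ± 0.881 FPKM (SD, n = 3), was lowest, and New moon June, at 11.3 ± 1.71, was the highest spring date. The related lmx1b was 4.20 ± 1.22 against 5.79 ± 1.26 FPKM and did not pass (-0.40, SE 0.18, adjusted p = 0.152). The second called gene, lhx5, a forebrain regulator, had a median of 0.825 FPKM at spring (0.51 to 1.57) and 1.78 at neap tide (0.63 to 2.24), with a change of -0.45 (SE 0.13, adjusted p = 0.0492). Its paralogue lhx1 was 2.46 ± 0.582 against 2.81 ± 0.452 FPKM and did not pass (adjusted p = 0.433).

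The most abundant LIM gene, isl1, which acts in arcuate hypothalamic and striatal neurons and in the pituitary of mice, was 10.3 ± 1.09 FPKM at spring and 10.8 ± 2.68 at neap tide (adjusted p = 0.952). No LIM gene of the ventral telencephalon passed. The cholinergic neuron gene lhx8 had 5.20 ± 0.516 against 5.05 ± 0.672 FPKM, lhx6, a gene of inhibitory neurons, had 0.980 ± 0.167 against 1.08 ± 0.228, and the lhx6-like copy (LOC101071009) had 2.70 ± 0.6 against 2.87 ± 1.15. Neither lhx2 (adjusted p = 0.200) nor lhx9 (adjusted p = 0.943), which both act in the developing forebrain, passed.

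In the sine oculis family, whose members pattern eye, forebrain and pituitary, no gene passed. The hypothalamic and eye genes lay lower at spring tide, six3 with 45.4 ± 2.37 against 50.5 ± 2.76 FPKM (-0.15, SE 0.12, adjusted p = 0.427) and six6 with 1.44 ± 0.330 against 1.81 ± 0.538 (adjusted p = 0.365). The 4 spring date means of six3 were all below the 4 neap means, yet the libraries overlapped widely, from 34.5 to 55.8 and from 36.8 to 60.2 FPKM. Higher at spring tide without passing lay six4, which had 2.53 ± 0.837 against 1.66 ± 0.151 FPKM (0.40, SE 0.17, adjusted p = 0.131), and six2, which had 8.02 ± 2.75 against 6.93 ± 1.92 (adjusted p = 0.641). Both were highest at Full moon July and lowest, among libraries, in Waxing moon May fish 2.

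All 3 irx genes, transcription factors of the iroquois group, were lower at spring tide, and 1 passed. The called gene irx5 had 0.86 to 2.28 FPKM at spring and 1.47 to 3.29 at neap tide, with medians of 1.64 and 2.77 (-0.44, SE 0.13, adjusted p = 0.0467). Beside it irx3 had medians of 1.26 and 2.24 FPKM (-0.44, SE 0.15, adjusted p = 0.0705) and irx2 of 1.39 and 1.92 (-0.31, SE 0.11, adjusted p = 0.0874). All 3 were called among the 8 dates, beside 41.3% of all genes tested. With median-ratio scaling or quantile normalization 0 of the 3 passed for the tide (3.96% and 4.13% of all genes). With scaling to a common sum all 3 did, beside 17.5% of all genes.

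The 4 dlx genes, which specify inhibitory neurons of the ventral telencephalon, lay close to level between the tides. The levels were 9.27 ± 0.843 against 9.26 ± 1.31 FPKM for dlx2, 5.53 ± 0.659 against 5.41 ± 0.849 for dlx6, 5.06 ± 0.828 against 5.17 ± 0.798 for dlx5 and 3.55 ± 0.424 against 4.16 ± 0.520 for dlx1, at spring and neap tide. None passed for the tide (adjusted p between 0.256 and 0.985) or among the 8 dates. The estimates ran from -0.18 (SE 0.10) for dlx1 to 0.03 (SE 0.12) for dlx6. The sign of the family's median depended on the scaling: it was -0.02 as deposited, -0.13 with scaling to a common sum and 0.03 with median-ratio scaling or quantile normalization.

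The median change of the pou genes was -0.02, and 0.03 with median-ratio scaling. Among them pou3f4, a brain factor of neural precursors and hypothalamic neurons, fell at spring tide. Its spring libraries ranged from 3.13 to 6.71 FPKM with a median of 4.11 and its neap libraries from 4.44 to 7.76 with a median of 6.99 (-0.48, SE 0.12, adjusted p = 0.0303). Full moon July was low in all of its fish, at 3.28 ± 0.150 FPKM, and Waning moon June was high at 7.47 ± 0.248 (SD, n = 3). The gene pou2f2 just missed the threshold, with 2.4 ± 0.334 against 3.15 ± 0.351 FPKM (-0.29, SE 0.09, adjusted p = 0.0505), and pou6f1 was 1.59 ± 0.147 against 2.09 ± 0.365 (adjusted p = 0.0855). The pituitary factor pou1f1, which drives growth hormone, prolactin and thyrotropin genes, lay the other way, at 21.6 ± 4.51 against 17.3 ± 7.09 FPKM, without passing (0.48, SE 0.41, adjusted p = 0.474). Likewise pou2f1 (50.7 ± 12.5 against 43.0 ± 11 FPKM) and pou2f3 (3.58 ± 0.647 against 2.93 ± 1.11) did not pass for the tide, although both differed among dates.

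The median of the meis, pbx and pknox group was 0.01 as deposited and -0.11 with scaling to a common sum. In this group, partners that bind DNA together with other homeodomain proteins, pknox1 gave the smallest p of all 99 genes. It ranged from 6.82 to 9.14 FPKM with a median of 8.10 at spring tide and from 8.73 to 15.9 with a median of 12.6 at neap tide. The overlap came from Waxing moon May, at 9.02 ± 0.295 FPKM, while the 3 other neap dates stood at 12.4 to 15.3 against 7.57 to 8.46 at the spring dates. The log2 change was -0.53 (SE 0.09, adjusted p = 0.00752). Its paralogue pknox2 was 9.98 ± 0.788 against 9.05 ± 0.486 FPKM and did not pass (0.13, SE 0.09, adjusted p = 0.348). The ratio of pknox1 to pknox2 was 0.783 to 0.866 in spring and 0.943 to 1.79 in neap date means, a difference that was not tested. Here too a called gene was set over a copy that was not called, so the ratio is no separate support. The abundant members pbx3 (17.7 ± 2.61 against 17.7 ± 0.540 FPKM) and meis2 (16.9 ± 0.778 against 17.3 ± 1.91) were close to level, as was meis1, at 1.06 ± 0.187 against 0.970 ± 0.0771. For pbx3 and meis2 the sign of the estimate depended on the scaling.

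No paired-like gene passed for the tide. The leading gene shox2, which acts in thalamic and other projection neurons of mice, stood at 27.8 ± 5.39 (spring) and 32.8 ± 3.21 FPKM (neap) (-0.24, SE 0.12, adjusted p = 0.199), and its relative shox (LOC101075433) had 5.41 ± 0.924 against 5.36 ± 0.691. The neuroendocrine gene otp, needed for oxytocin- and vasopressin-type neurons, had 1.10 ± 0.202 against 1.35 ± 0.317 FPKM, and its copy otp-B-like (LOC101075487) 2.38 ± 0.564 against 2.79 ± 0.692, adjusted p of 0.524 and 0.528. The hypothalamic gene rax was 1.71 ± 0.0738 against 2.12 ± 0.269 FPKM (-0.21, SE 0.12, adjusted p = 0.273), with date means that did not overlap. The head regulators otx2 (LOC101068129, 2.54 ± 0.442 against 3.49 ± 0.804 FPKM), otx2-A (2.45 ± 0.727 against 2.69 ± 0.376) and otx1 (2.09 ± 0.296 against 2.48 ± 0.350) did not pass, nor did arx, a gene of inhibitory neurons, at 3.32 ± 0.669 against 3.23 ± 0.800 FPKM.

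The cut, zinc finger and atypical genes held 3 of the 12 that fell. The repressor zeb1 (LOC101073424), known for control of epithelial and neural states in mammals, had 6.31 to 8.44 FPKM with a median of 6.99 at spring and 7.30 to 15.4 with a median of 11 at neap tide (-0.55, SE 0.11, adjusted p = 0.0142). Its date means did not overlap. The copy zeb1-like (LOC101079552) did not pass, at 8.53 ± 0.475 against 7.85 ± 0.445 FPKM (0.10, SE 0.06, adjusted p = 0.264). The ratio of zeb1, a called gene, to this copy was 0.750 to 0.950 in spring and 1.13 to 1.73 in neap date means, also not tested. Ratios of other copy pairs overlapped between the tides. They were 0.0440 to 0.0840 and 0.0533 to 0.128 for prox1-like LOC101066115 over LOC101077031. For otx2 over otx2-A they were 0.735 to 1.32 and 1.08 to 1.52, and those of the otx5-like pair overlapped as well. The one cut genes, neuronal and endocrine regulators, moved together: onecut2 went from a median of 1.66 FPKM (1.02 to 2.27) at neap to 0.905 (0.67 to 1.17) at spring tide (-0.44, SE 0.10, adjusted p = 0.0235), and onecut1 from 5.62 (3.5 to 6.37) to 3.69 (2.79 to 4.95; -0.37, SE 0.11, adjusted p = 0.0485). The date means of onecut2 did not overlap, whereas those of onecut1 did, also without Waxing moon May. The abundant genes prox1-like (LOC101077031, 26.4 ± 2.01 against 26.2 ± 3.64 FPKM), zeb2 (21.3 ± 3.00 against 23.1 ± 0.701) and cux1 (19.4 ± 1.68 against 17.2 ± 0.801) did not pass. Nor did hopx, a small atypical homeodomain protein that does not bind DNA, at 9.38 ± 0.778 against 7.23 ± 2.31 FPKM (0.37, SE 0.15, adjusted p = 0.111).

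Of the other genes, hlx and hmx3-A fell. A regulator of gut and liver development in mice, hlx had 1.2 to 2.4 FPKM with a median of 1.53 at spring and 1.43 to 4.56 with a median of 2.96 at neap tide (-0.53, SE 0.15, adjusted p = 0.0387). The hmx genes act in the hypothalamus and the inner ear of mice, where hmx2 and hmx3 are needed for neurons that make growth hormone-releasing hormone. Of the 4 here, hmx3-A (LOC101077246) passed, with medians of 1.18 (0.61 to 2.16) and 2.06 FPKM (1.08 to 2.77; -0.47, SE 0.13, adjusted p = 0.0417). The others were lower at spring tide without passing: hmx2-like (LOC101075566) changed by -0.39 (SE 0.12, adjusted p = 0.0505), hmx3-B-like by -0.39 (SE 0.13, adjusted p = 0.0761) and hmx2 by -0.26 (SE 0.11, adjusted p = 0.124). The most abundant of this group, hmbox1, a telomere-binding protein in human cells, was 28.2 ± 2.48 against 24.6 ± 3.84 FPKM, hdx was 13.3 ± 0.919 against 14.1 ± 1.47 and gsx1, a regulator of hypothalamic and striatal precursors, was 11 ± 3.02 against 14.7 ± 3.58 (adjusted p = 0.114). The forebrain genes vax1 (3.08 ± 0.435 against 2.99 ± 0.525 FPKM), dbx1-B-like (2.00 ± 0.272 against 2.26 ± 0.331) and emx1-like (4.54 ± 0.873 against 4.03 ± 0.963) did not pass either.

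**Figure D3:**
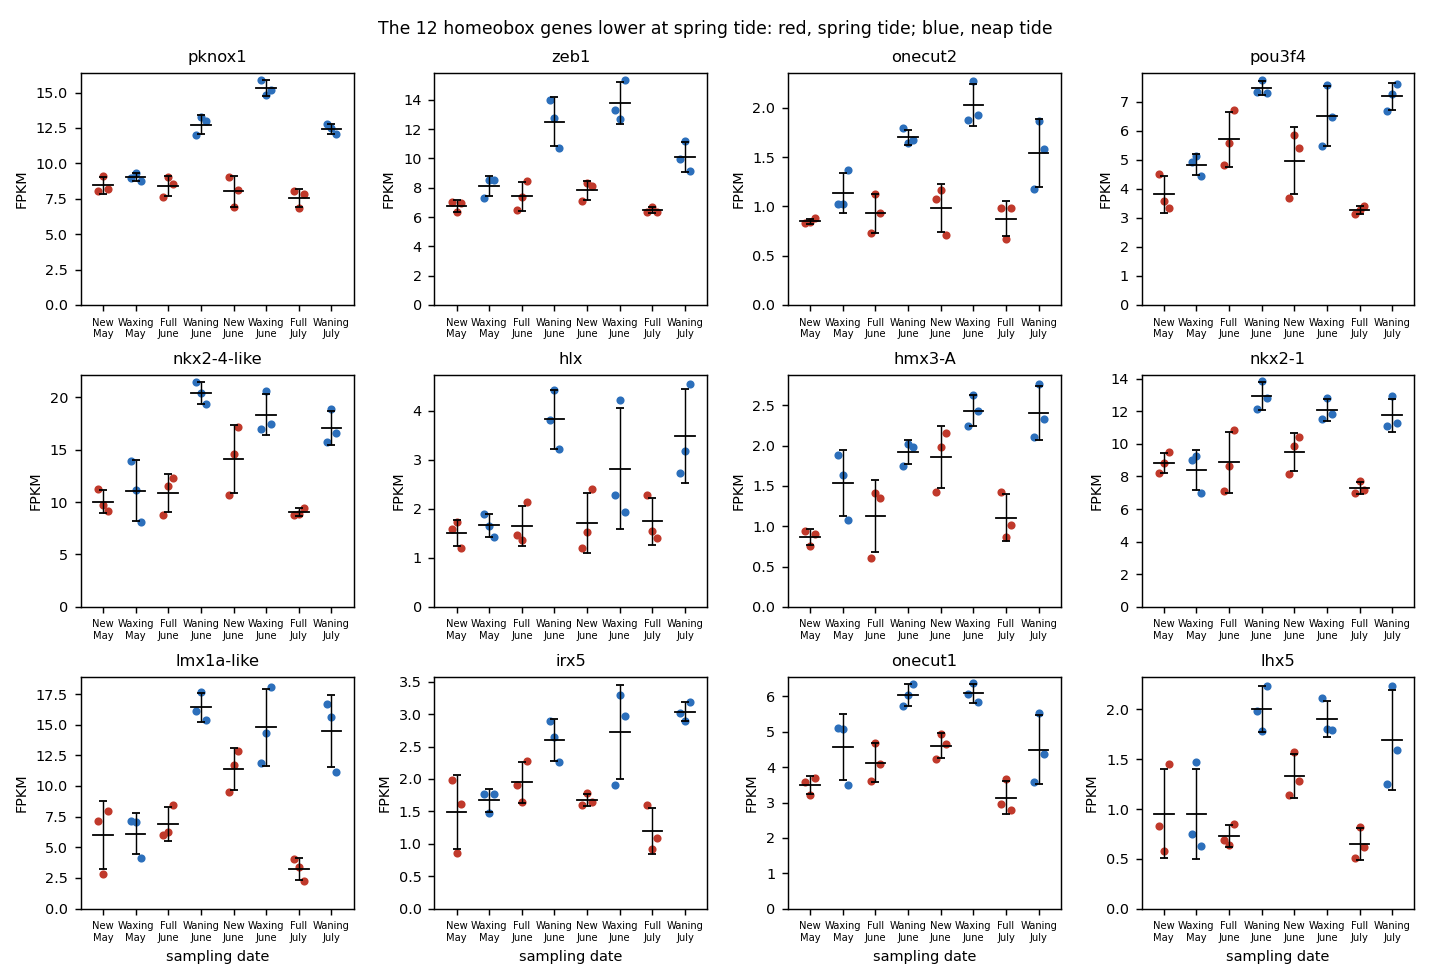
FPKM in every library of the 12 homeobox genes lower at spring tide, by sampling date in time order (points, 3 libraries per date; bars, mean ± SD; red, spring; blue, neap). The neap dates Waning moon June, Waxing moon June and Waning moon July stand above the spring dates in most panels, whereas Waxing moon May, for example 9.02 FPKM for pknox1, sits close to them.

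The number of calls depended on single libraries and dates. With one library left out the number of genes called ran from 4 to 19, beside 2.19% to 10.7% of all genes. With one date left out it ran from 0 to 32, beside 0.0176% to 24.2% of all genes. It was 0 without New moon May, Waxing moon June or Full moon July. Over all 17058 genes, 11, 3 and 7 passed in those 3 fits, so the loss was not particular to the homeobox genes. With date means as samples 0 homeobox genes passed, beside 1 of all 17058 genes. Across 45 alternatives, 24 of which leave out 1 library, pknox1 passed in 39 and zeb1 in 38, whereas irx5 passed in 12 of 44 and nkx2-1 in 15 of 45. The fits in which pknox1 failed were those with summed FPKM as covariate and with date means as samples. It also failed without New moon May, Waxing moon June, Full moon July or Waning moon July. With a pituitary score (8 hormone genes) as a covariate the estimates of the 12 genes ran from -0.32 for nkx2-1 to -0.78 for lmx1a-like. In that fit 1 homeobox gene, pknox1, passed (-0.54, adjusted p = 0.0396), beside 0.141% of all genes. The score was 4.54 in Waxing moon May fish 2 and 8.64 to 11.4 in all other libraries. That library therefore weighs heavily on the fit, which says little about pituitary content in the others. With each library's summed FPKM as the covariate the estimates of the 12 genes ran from -0.11 for nkx2-1 to -0.42 for lmx1a-like.

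Each date is one catch, so a difference among dates can hold anything that the fish of one catch share. The F-test among dates has no term for such spread between catches, and on simulated data with that spread it also called genes to which no change had been added. Of the 99 homeobox genes, 45 were called by the F-test among dates, or 45.5%, beside 41.3% of all genes tested, a share close to the background. The 45 include all 12 tide genes and 33 others. Of the 45, 16 were highest at Waxing moon June, 11 at Waning moon June and 9 at Waning moon July, and 20 were lowest at Full moon July and 12 at New moon May. By another measure, the share of genes above their own mean, all genes tested leaned the same way. At Waxing moon June, Waning moon June and Waning moon July 57.4%, 54.3% and 57.6% of them lay above it. Of the 99 homeobox genes 67, 65 and 65 did. At Full moon July and New moon May 44.7% and 39.5% of all genes did, and 29 of the 99 homeobox genes at each. In the median gene the highest date stood at 1.71 times the lowest, beside 1.45 times over all genes tested. The levels differ too, with a median of 4.29 against 9.28 FPKM. No background of like level was taken, so the gap cannot be read as particular to homeobox genes. In 34 of the 99 genes the factor was 2 or more, a count for which no share over all genes is given here.

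The 10 smallest p-values among dates were those of pknox1 (adjusted p = 4.08e-06), zeb1 (1.80e-05), lmx1a-like (8.75e-05), pou3f4 (0.000169), a second prox1-like copy (LOC101066115, 0.000171), nkx2-4-like (0.000209), gsx1 (0.000310), tshz2 (0.000357), barhl1 (0.000672) and nkx2-1 (0.000734). The genes gsx1, tshz2, barhl1 and prox1-like (LOC101066115) are not tide genes by the threshold but share the profile. The last of these, a copy of a regulator of neurogenesis, had 3.33 ± 0.191, 3.32 ± 0.147 and 3.37 ± 1.36 FPKM at Waning moon June, Waxing moon June and Waning moon July (SD, n = 3). It lay between 1.09 and 1.41 at the other dates except New moon June, which was between at 2.4 ± 0.307. Its more abundant copy LOC101077031 did not differ beyond the threshold among dates (adjusted p = 0.140).

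A smaller group ran the other way. The genes pou2f1, pou2f3, hopx, hmbox1, emx1-like and arx were called among dates and had their highest date mean in May, at Full moon June or at both, and six4 was highest at Full moon July. For pou2f1, date means were 66.8 FPKM at Full moon June and 58.4 at Waxing moon May, against 33.2 at Waning moon June (adjusted p = 0.0254). For hopx they were 10.3 at New moon May and 10.6 at Waxing moon May, against 5.37 at Waning moon July (adjusted p = 0.00629). The emx1-like gene, of the dorsal telencephalon, went from 5.76 FPKM at New moon May to 2.94 at Waxing moon June (adjusted p = 0.0464).

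**Figure D4:**
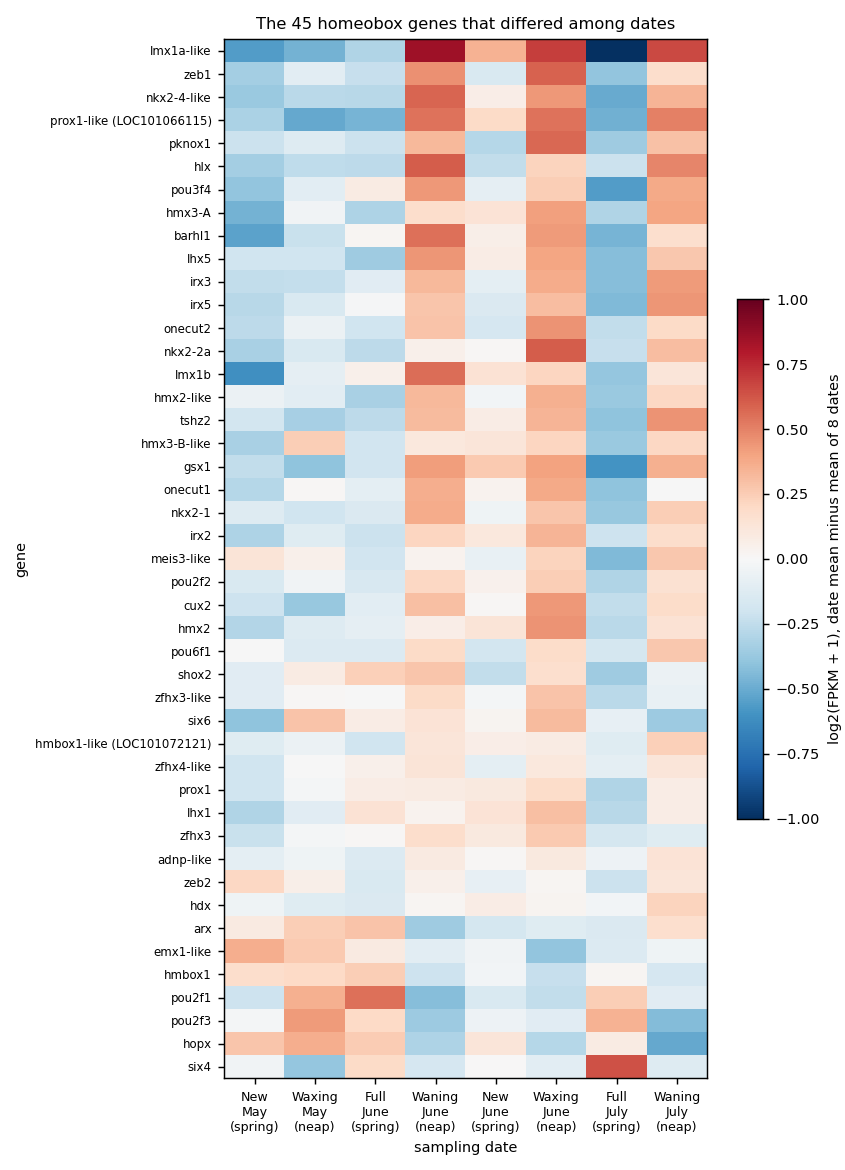
Date means of log2(FPKM + 1) minus the mean of the 8 dates for the 45 homeobox genes that differed among dates, ordered from the lowest to the highest tide estimate; colours are limited to -1 and 1. The upper rows are red at Waning moon June, Waxing moon June and Waning moon July, and the last rows, from arx to six4, are not.

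No homeobox gene passed in the other comparisons. In the limma fits an unadjusted p below 0.05 was found in 2042 of all 17058 genes for new against full moon. It was found in 486 for waxing against waning moon, 1446 for the change per week and 607 for tide by lunar cycle. The unadjusted counts of homeobox genes below stand beside these. New against full moon gave 0 of 99 (0.0176% of all genes, 0.0117% higher and 0.00586% lower; 5 at an unadjusted p below 0.05), and the 5 smallest p-values, none passing, were those of lhx3 (-0.90, SE 0.37, adjusted p = 0.341), meis3-like (0.34), pou2f1 (-0.58), zeb2 (0.25) and satb1 (0.36). The pituitary gene lhx3 stood at 4.70 and 4.55 FPKM at the new moons and at 8.09 and 10.8 at the full moons. Waxing against waning moon gave 0 (0% of all genes; 6 unadjusted), led by hlx (-0.56, SE 0.21), pou2f3 (0.55), six6 (0.41), tshz2 (-0.38) and hopx (0.45), all with an adjusted p of 0.997. The change per week gave 0 (0% of all genes; 8 unadjusted), led by hopx (-0.08 per week, SE 0.03, adjusted p = 0.471), hdx (0.03), emx1-like (-0.07), six2 (0.16) and hmx3-A (0.06). The interaction of tide and lunar cycle gave 0 (0% of all genes; 2 unadjusted), led by pknox1 (-0.44, SE 0.16) and lhx6-like (-1.15, SE 0.43), then meis3-like (-0.43), dlx1 (-0.40) and hmbox1-like (LOC101075164, -0.27), all at an adjusted p of 0.993.

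By the brain region they mark, the genes split in sign. Of 18 hypothalamic and preoptic genes, 17 were lower at spring tide, 3 were called (nkx2-1, nkx2-4-like and hmx3-A), 8 differed among dates, and the median log2 change was -0.19. Over all genes tested 5.63% were called for the tide, 41.3% differed among dates and 41.5% were higher at spring tide, so the share that differed among dates was near that of all genes. Of 11 telencephalic genes, 2 of which are also in the first list, 6 were lower and 0 were called, with a median of -0.04, and 3 differed among dates (gsx1, arx and emx1-like). The largest estimate of that list was -0.39 for gsx1 (SE 0.15, adjusted p = 0.114), followed by -0.18 for dlx1 and lhx2. The 4 pituitary genes, with lhx3, lhx4 and pou1f1 among them, were all higher and 0 were called, with a median of 0.19. The hypothalamic median stayed negative under each scaling (-0.28, -0.16 and -0.19 with scaling to a common sum, median-ratio scaling and quantile normalization), with 15 to 18 of 18 lower. The pituitary median stayed positive (0.09 to 0.23, and 0.05 without Waxing moon May), and the telencephalic one was -0.14 with scaling to a common sum. These lists were chosen with results of the data known, and whether the regions differ from each other was not tested.

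Markers of the tissues in the piece moved too. All 8 pituitary hormone genes were higher at spring tide, 1 of them called, and their summed level was 32053 to 54965 FPKM at the spring and 15917 to 19433 at the neap dates. The 3 endothelial markers were lower, 1 called (summed level 55.5 to 64.2 against 79.8 to 100 FPKM), and 4 of 5 neuronal markers were lower without passing (1275 to 1706 against 1556 to 1621). Telencephalic markers overlapped, with a summed level of 17.3 to 30.7 against 17.5 to 27.3 FPKM, and so did the hypothalamic peptides at 729 to 1593 against 505 to 1577. All 4 blood genes were higher without passing (median 0.54, summed level 1704 to 3524 against 851 to 3017 FPKM). Of 5 oligodendrocyte markers, 2 were higher and 3 lower, with a median of -0.0017. Only 1 was called, the regulator olig2, which was lower (-0.53, adjusted p = 0.0424). The 2 higher ones were myelin basic protein-like genes (0.25 and 0.35), which did not pass. Germ cell markers were near 0 (dazl at a mean of 0.0400 FPKM). Of the hypothalamic markers 10 of 11 tested were higher, 1 of them called, opposite in sign to the hypothalamic homeobox genes. Beyond the covariate fits given above, the part of these shifts in the homeobox results was not tested.

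One library stood apart in the pituitary homeobox genes. Waxing moon May fish 2 had a pituitary score, the mean log2(FPKM + 1) of 8 hormone genes, of 4.54, and it was the lowest of the 24 libraries for 11 homeobox genes (5.96% of all genes were lowest there). In 9 of these it was also at least 3-fold below the median of the other 23 libraries (1.37% of all genes). Among them were pou1f1 at 0.70 FPKM against a median of 19.9, lhx4 at 0.04 against 1.22, six2 at 0.52 against 7.67, the muscle segment gene msh-D-like (LOC101062032) at 0.45 against 3.56, six4 at 0.33 against 1.90, lhx3 at 1.16 against 6.52 and msx1 at 0.34 against 1.22. The homeodomain gene pitx1, an early pituitary factor whose row lacks the word homeobox, was at 0.04 FPKM there and at up to 25.7 elsewhere. Several genes of the other regions lay near or above the median in this fish, such as six3 at 49.7 FPKM against 49.2, nkx2-1 at 9.23 against 9.90 and dlx2 at 11.7 against 9.06. Others lay below it, such as vax1 at 1.99 FPKM against 3.08 and dbx1-B-like at 1.03 against 2.09, as did nkx2-4 and nkx2-4-like. For each of these genes below the median, another library was lower still. None of the 9 was called for the tide with this library in. Without this library 9 homeobox genes were called, all lower at spring tide, beside 5.13% of all genes called. All of them were among the 12 called with the library in, and none was among the genes low in this fish.

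**Figure D5:**
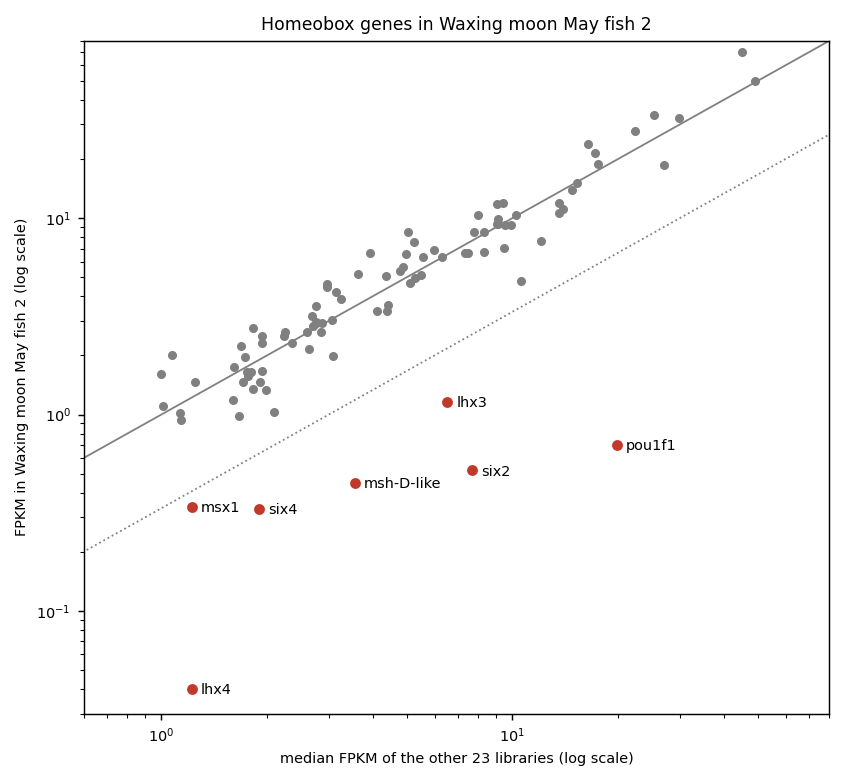
FPKM in Waxing moon May fish 2 against the median of the other 23 libraries for 95 homeobox genes, without the otx5-like pair and genes not reported here (both axes log scale); the solid line is equality, the dotted line a 3-fold lower value. The 7 red genes, pou1f1, lhx3, lhx4, six2, six4, msx1 and msh-D-like, lie below the dotted line.

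The otx5-like pair was present in some libraries and near 0 in the rest. The genes LOC101063742 and LOC101066688, named after a factor of photoreceptor and pineal cells, were at 1.49 to 7.45 and 1.49 to 7.80 FPKM in 8 libraries and at most 0.22 and 0.12 in the other 16. The 8 were New moon May fish 1, Waxing moon May fish 3, Waning moon June fish 2 and 3, New moon June fish 3, Waxing moon June fish 2 and Full moon July fish 2 and 3. They fall on both tides and, at each of these dates, only on part of the fish. Rhodopsin (rho), the rod photopigment, was at 29.0 to 238 FPKM in the same 8 libraries and at most 4.41 in the other 16. An S-arrestin-like gene (15.1 to 105 against at most 1.77 FPKM), recoverin (8.18 to 59.0 against 1.97) and a serotonin N-acetyltransferase-like gene (4.66 to 12.8 against 0.40) split the same way. Other such genes did not. A further serotonin N-acetyltransferase-like gene (LOC101071652, 0.03 to 0.28 FPKM) and aanat (0.03 to 0.37) were low in all libraries. A G(t) subunit alpha-2-like gene overlapped, with 1.01 FPKM in Waxing moon June fish 2 and 1.34 in Waning moon July fish 3. In a bulk piece these levels do not tell which tissue held the transcripts. Reads shared between the pair make the level of each copy uncertain, as for the other close copies named here.

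Homeodomain genes whose row lacks the word homeobox, and genes for proteins that partner with homeodomain proteins, were counted in the same way, beside 5.63% of all genes called for the tide and 41.3% among dates. Of 21 such homeodomain genes, 13 were lower at spring tide and 0 were called, with a median of -0.15, and 7 differed among dates. They include the irx-1-like gene LOC101072027 (-0.41, SE 0.13, adjusted p = 0.0600) and a pou3f2 copy (LOC101071226; -0.36, SE 0.14, adjusted p = 0.103). Of 33 partners and cofactors, 21 were lower and 1 was called, with a median of -0.05, and 13 differed among dates. The called gene was eya3, a coactivator of sine oculis proteins, at -0.22 (SE 0.07, adjusted p = 0.0481), and lmo3, a LIM-only protein that competes for LIM cofactors, came next at -0.49 (SE 0.15, adjusted p = 0.0542). The LIM cofactor gene ldb2, among the most abundant at 57.2 FPKM, did not pass (0.10, SE 0.08, adjusted p = 0.406).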

How the data were processed

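The authors aligned strand-specific poly-A libraries with HISAT2 2.0.4 and estimated gene levels with RSEM 1.2.12, per the submitters' processing notes; no build is named in the sources used here. The deposited values are FPKM per gene with 2 decimals, without counts, so the depth of each library is unknown. From them log2(FPKM + 1) was computed, and limma 3.58.1 (R 4.3.3, statmod 1.5.0) was fitted with an intensity trend over 17058 genes with a mean of at least 1 FPKM. Date was a random block (within-date correlation 0.264 for tide and moon phase, 0.276 for week, 0.290 for tide by cycle), except in the F-test among dates. P-values were Benjamini-Hochberg adjusted with a threshold of 0.05. In the blocked fits they rest on the spread between libraries and on a within-date correlation shared by all genes. Those of the F-test among dates rest on the spread between libraries of a date only. Tide varies only between dates, and with date means as samples 1 of 17058 genes passed for it. The fits were tested on simulated data, where the F-test among dates also called genes that differed by the spread between dates alone.

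The members and lists were chosen with earlier results of these data known. Genes named are the 3 most abundant of each family, those past a threshold (at most 10 a comparison by p), the 5 smallest p where fewer passed, the neighbours of the minimum and a list of forebrain and pituitary regulators; all else named was chosen after its values were seen, onecut1 and lhx5 among them. Replicate numbers do not pair libraries: the median correlation of deviations was 0.0165 over 84 same-numbered pairs and -0.00819 over 168 others. Alternatives were another pseudocount, filter, scaling, covariate or grouping, and leaving out libraries or dates. Summaries used python 3.11.15, pandas 2.3.3 and matplotlib 3.10.9. Some genes are not reported by name here; they remain in the counts and medians.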

Additional observations from a re-analysis of the deposited data

How the results depend on the processing

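The 12 homeobox genes lower at spring tide became 6 with a minimum mean of 5 FPKM, beside 5.09% of all genes called in either direction. Scaling to a common sum (TPM) gave 30 (17.5% of all genes), median-ratio scaling 6 (3.96%) and quantile normalization 7 (4.13%). There were 0 with summed FPKM as covariate (0.0293%), 1 with the pituitary score (0.141%) and 4 with week (2.63%). With 2 tide groups in place of moon phases 4 were called (2.36%), and with date means as samples 0 (0.00586%). With one date left out the count was 0 without New moon May (0.0645% of all genes), Waxing moon June (0.0176%) or Full moon July (0.041%). It was 1 without Waning moon June (0.498%) or Waning moon July (0.141%), 7 without New moon June (2.09%) and 11 without Full moon June (7.11%). Without Waxing moon May it was 32 (24.2%), of which 29 were lower and 3 higher. With one library left out it ran from 4 (Waxing moon June fish 3, 2.19% of all genes) to 19 (Full moon June fish 3, 10.7%). Of these 19, 18 were lower and 1 higher. The count was 10 with a pseudocount of 0.1 (5.63% of all genes), 16 without a filter (5.59%) and 14 without the intensity trend (5.21%). It was 9 with the replicate number as a block (5.01%), although the numbers do not pair the libraries. The 45 genes that differed among dates became 20 with a minimum of 5 FPKM, where 44 homeobox genes were left. They became 8 with summed FPKM as covariate, and 39 to 48 without one library. The shares of all genes in these fits among dates are not given here, so the moves cannot be read as particular to homeobox genes. For 30 single-gene results followed over the alternatives (the smallest p-values of each of 5 comparisons), 994 values kept direction and side of the threshold. A further 176 kept direction but no longer passed, and 0 reversed. Only the 10 tide results had passed in the reported fit, so all 176 losses were theirs. Among these 10 the alternatives passed ran from 39 of 45 for pknox1 to 12 of 44 for irx5. The other results kept their side of the threshold by not passing again. Genes near 0 outside these did change sign, such as pbx3 (-0.01 to 0.04), meis2 (-0.03 to 0.02) and nkx2-4 (-0.01 to 0.04) with median-ratio scaling, none of them called. The cause of these shifts was not tested. The other comparisons gave 0 genes under each alternative run. With no counts deposited, the depth limit of genes near 1 FPKM cannot be given.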
